A study of Mus musculus with 6 samples.

Results

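The miR-23, miR-27 and miR-24 microRNAs (miRNAs) are made from 2 related gene clusters, and 9 of their mature arms, chosen by their names, were followed among the 707 rows of a miRNA count table. The table covers exosomes, small vesicles shed by cells, from the supernatant of bone marrow-derived macrophages, which are grown from marrow in culture. There were 3 libraries from wild-type (WT) C57BL/6 mice and 3 from Roquin-1 san:san mice of the same strain. Roquin-1 binds stem-loops of certain messenger RNAs, which are then degraded, and san names the sanroque allele of its gene. No treatment, age or sex is given in the labels, nor whether replicates were separate mice or cultures, so p-values measure the spread between these libraries, which may be technical.

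Each miRNA gene is transcribed into a hairpin, and the enzymes Drosha and Dicer cut from it a duplex of a 5p and a 3p arm. One strand, the guide, is usually loaded into an Argonaute protein and kept, while the other, the passenger, is mostly degraded. In the miR-23, miR-27 and miR-24 hairpins the 3p arm is the usual guide. Bases 2 to 8 of a guide, the seed, select its target messenger RNAs. In blood cells the miR-23a cluster is known to favour myeloid over B cell development, and miR-24 and miR-27 are known to restrain type 2 helper T cell responses.

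In the RefSeq annotation of GRCm38.p6 the Mir23a, Mir27a and Mir24-2 hairpins lie within 404 bases of chromosome 8 (chr8:84208518-84208921, plus strand). GENCODE places no other gene over Mir23a or Mir27a, while Mir24-2 touches an exon of the non-coding RNA Gm26532 and the opposite-strand Mir3074-2. Mir23b, Mir27b and Mir24-1 lie within 792 bases of chromosome 13 (chr13:63300484-63301275, plus strand), inside the gene 2010111I01Rik, where Mir23b is intronic and the others meet an exon, with Fancc on the other strand. The authors worked in mm9, so these positions place the genes and are not positions of their reads. Both loci make the same mature miR-24-3p, whose counts cannot be divided between them.

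The mature sequences, credited to RefSeq and matched for 8 of the 9 arms, are shown because the 5p and 3p arms of the same hairpin differed in how far they moved. They are written 5′ to 3′ with the seed in capitals.
mmu-miR-23a-5p: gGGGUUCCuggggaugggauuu
mmu-miR-23a-3p: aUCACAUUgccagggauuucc
mmu-miR-23b-5p: gGGUUCCUggcaugcugauuu
mmu-miR-27a-5p: aGGGCUUAgcugcuugugagca
mmu-miR-27a-3p: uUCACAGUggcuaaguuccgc
mmu-miR-27b-3p: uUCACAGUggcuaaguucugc
mmu-miR-24-2-5p: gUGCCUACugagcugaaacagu
mmu-miR-24-3p: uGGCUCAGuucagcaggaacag
The remaining arm is mmu-miR-23b-3p. The miR-27a-3p and miR-27b-3p guides share the seed UCACAGU and differ by 1 base, C19U, counted from the 5′ end with miR-27a-3p first. miR-23a-5p and miR-23b-5p share a run of 10 bases that starts at base 2 of the first and base 1 of the second, so their seeds are offset by 1 base and not identical. Among rows with a RefSeq sequence, no other carried the seed of miR-23a-5p, miR-23b-5p, miR-27a-5p or miR-24-3p. The 21-base and 22-base arms are of similar length, and their levels are compared as counts.

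The WT libraries held 12447 to 28884 counts and the san:san libraries 126098 to 185901, so depth and genotype cannot be told apart by design. A count of 0, which allows up to 3 counts, limits a miRNA to 104 to 241 CPM (a count relative to the library total, on the usual scale) in WT and to 16.1 to 23.8 CPM in san:san. Intervals and limits of this kind cover counting error only. Marker miRNAs of cell types are given beside a background of 34.6% higher and 29.5% lower in san:san among all tested miRNAs. Myeloid markers (5 of 5 tested, 4 higher in san:san) held 4.83% to 5.54% of WT counts and 9.68% to 11.4% of san:san counts. Erythroid markers (4 of 4 tested, 3 higher) held 2.68% to 4.59% and 10.3% to 11.9%. Lymphocyte (1 of 1 higher), endothelial (2 of 2), liver and gut (2 of 3) and stromal markers (1 of 4 higher, 1 lower) held 0.409% to 0.492%, 1.82% to 3.69%, 0.584% to 0.782% and 0.683% to 0.973% in WT. In san:san they held 1.38% to 1.92%, 3.37% to 6.96%, 0.542% to 0.758% and 0.479% to 0.576%. The part of these other cell types in the values that follow was not tested. Relative counts do not separate fewer vesicles of a kind from fewer copies per vesicle.

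One arm of the clusters was far lower in the san:san libraries. miR-23a-5p, the passenger arm of the miR-23a hairpin, had WT counts of 273, 531 and 457 and san:san counts of 28, 28 and 30. The san:san libraries had fewer counts in spite of being several times deeper, and the genotypes were far apart. As a share of the library it fell from 2.19%, 1.84% and 2.10% to 0.0151%, 0.0174% and 0.0238%. In CPM scaled by TMM (a factor meant to set the bulk of miRNAs equal between libraries), it went from 16758 ± 2131 to 231.5 ± 67.8 (SD, n = 3 per genotype here and below). This 73.4-fold drop (log2 -6.20 ± 0.27, SE; edgeR's quasi-likelihood test, Benjamini-Hochberg adjusted p = 1.10e-09) had the smallest p of the 254 miRNAs deep enough to test. By size it was the seventh fall among those tested. By mean level it held rank 11 of the 707 rows in WT and rank 180 in san:san.

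The guide from the other side of the same hairpin did not pass the test. miR-23a-3p, known to repress glutaminase, had WT counts of 468, 940 and 540 and san:san counts of 3785, 2995 and 1808. Scaled, these were 32544, 26087 and 19559 CPM in WT against 23867, 22532 and 18519 in san:san, and the groups overlapped (log2 -0.26 ± 0.22, edgeR adjusted p = 0.305). It was the most abundant of the 9 arms in each library.

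Of the 9 arms 8 passed the filter on low counts, 2 were lower in san:san, 0 higher, and 6 did not pass the test. Among all tested miRNAs 29.5% were lower and 34.6% higher at the same threshold (adjusted p under 0.05), so 2 of 8 is near the background. miR-23b-5p, 1 of these 2, passed the filter only by its WT libraries. The median log2 difference of the 8 arms was -0.23, against 0.30 for all 254.

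**Figure D1:**
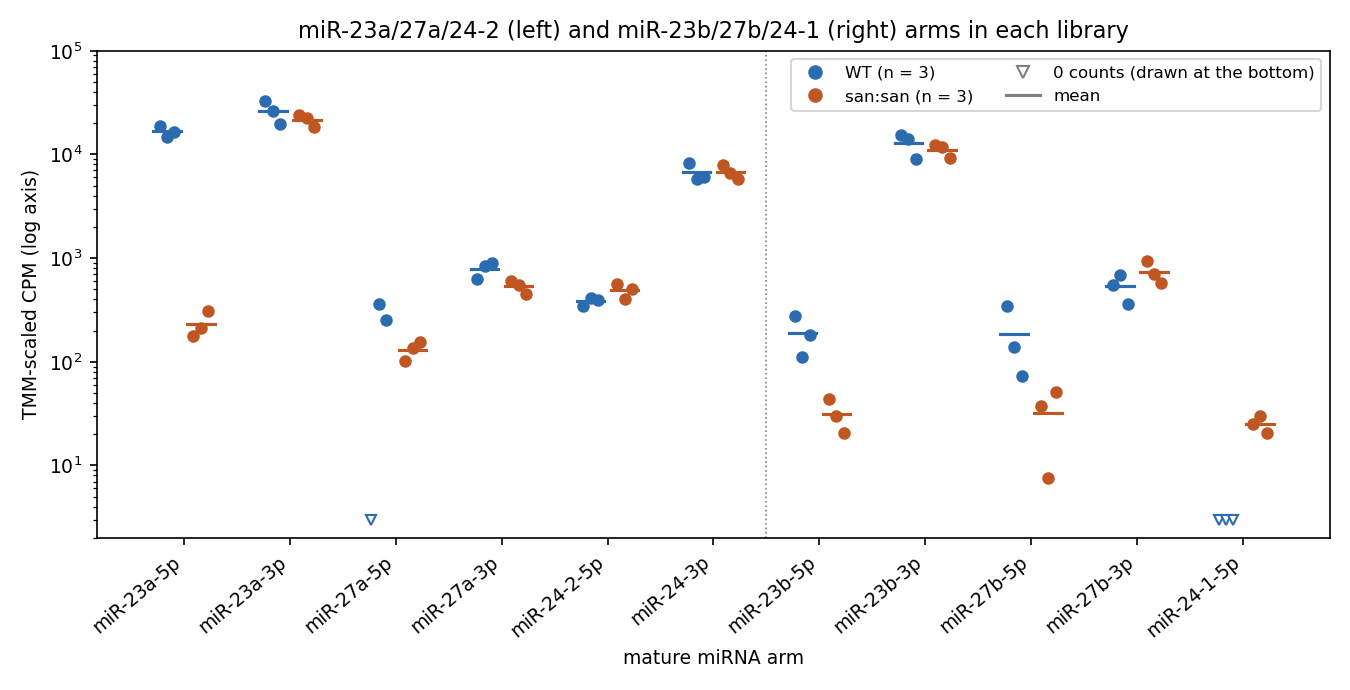
TMM-scaled CPM (log axis) of each arm of the clusters in each of the 3 WT and 3 san:san libraries, with the mean as a bar where no library is at 0 and open triangles for 0 counts. miR-23a-5p stands at 14736 to 18984 CPM in WT and 177 to 307 in san:san, while the 3p arms of miR-23a, miR-23b and miR-24 overlap.

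The miR-23b hairpin showed a smaller shift of the same kind in far fewer counts. Its passenger arm miR-23b-5p had WT counts of 4, 4 and 5 and san:san counts of 7, 4 and 2. Scaled, these were 278, 111 and 181.1 CPM in WT and 44.1, 30.1 and 20.5 in san:san, without overlap (log2 -2.31 ± 0.56, edgeR adjusted p = 0.00254). The ratio of pooled scaled counts, san:san over WT, was 0.201 with a 95% exact counting interval of 0.0856 to 0.469. The call rests on 13 counts in each genotype. The arm passed the count filter only by its WT libraries, where it was higher, and the adjusted p does not allow for this selection. With any 1 of the san:san libraries left out, the filter, which follows library depth, grew stricter. It then left 199 miRNAs rather than 254, and the arm fell below it. At a minimum count of 20 the arm was also untested, and in libraries thinned to equal depth it was tested in 0 of 25 draws. Its guide miR-23b-3p had WT counts of 221, 503 and 251 and san:san counts of 1938, 1565 and 903, and overlapped between genotypes (log2 -0.20 ± 0.23, adjusted p = 0.441).

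Among the miR-27 arms no call was made in the main fit, with TMM scaling, a minimum count of 10 and all 6 libraries. miR-27a-3p, a guide known to repress the fat-cell regulator PPARγ and FOXO1, had WT counts of 9, 30 and 25 and san:san counts of 95, 73 and 44. Scaled, it stood at 626, 833 and 905 CPM in WT and 599, 549 and 451 in san:san. The groups did not overlap, but the closest pair of libraries differed little, and the difference missed the threshold (log2 -0.59 ± 0.25, edgeR adjusted p = 0.0538). It passed with every other scaling tried, with DESeq2 (log2 -0.84, adjusted p = 0.0243), with either other count minimum and without WT replicate 1 (-0.77, 0.0162). It did not pass with no filter (-0.45, edgeR adjusted p = 0.288), with identical rows merged (-0.62, 0.0549) or with replicate number as a block (-0.60, 0.108). Nor did it pass with any other library left out. In libraries thinned to equal depth it could be tested in only 4 of 25 draws. miR-27b-3p, which differs from it by 1 base, had WT counts of 8, 25 and 10 and san:san counts of 149, 94 and 56. At 556, 694 and 362 CPM against 940, 707 and 574, it lay on the other side of 0 (log2 0.45 ± 0.31, adjusted p = 0.218), and turned to -0.13 with total counts.

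The passenger miR-27a-5p was the 1 arm too low to test, with WT counts of 0, 13 and 7 and san:san counts of 16, 18 and 15. Its ratio of pooled scaled counts, san:san over WT, was 0.491 (95% exact counting interval 0.287 to 0.872), and its single libraries overlapped because WT replicate 1 had none. Without that library it was tested and lower (log2 -1.37, edgeR adjusted p = 0.0163). Without WT replicate 2 the value was -0.44 (0.659) and without WT replicate 3 it was -0.92 (0.237). Nor did miR-27a-5p pass with all 6 libraries at a minimum count of 5 (log2 -1.05, edgeR adjusted p = 0.111) or with no filter (-0.81, 0.2755). A further row, miR-27b-5p, held WT counts of 5, 5 and 2 and san:san counts of 6, 1 and 5, a pooled ratio of 0.201 (0.0824 to 0.488), also too low to test. Its scaled values, 348, 139 and 72.4 CPM in WT and 37.8, 7.52 and 51.2 in san:san, did not overlap.

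Neither tested miR-24 arm passed with TMM scaling. miR-24-3p, known to repress the cell death protein BIM, had WT counts of 118, 211 and 169 and san:san counts of 1247, 881 and 570. Scaled, it stood at 8206, 5856 and 6121 CPM in WT and 7863, 6628 and 5838 in san:san, with the groups interleaved (log2 0.03 ± 0.21, edgeR adjusted p = 0.918). Its sign was negative with every other scaling, and with total counts it was lower (-0.54, adjusted p = 0.0375). The passenger miR-24-2-5p, with 5, 15 and 11 counts against 90, 54 and 49, overlapped as well (0.32 ± 0.30, adjusted p = 0.357), and was at -0.27 with total counts. miR-24-1-5p, which can come only from the chromosome 13 locus, had 0 counts in all WT libraries and 4, 4 and 2 in san:san. The limit of 38.5 CPM that 0 counts allow over the WT libraries lies above its pooled san:san level of 25.7 CPM, so no difference was detectable at this depth.

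**Figure D2:**
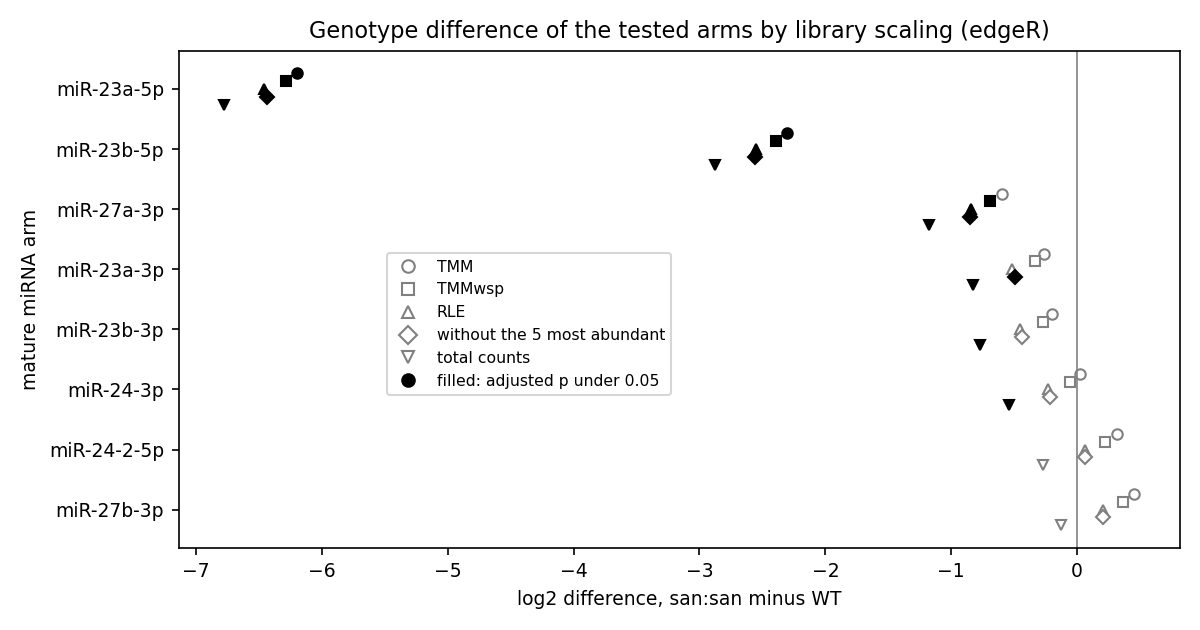
Log2 difference, san:san minus WT, of the 8 tested arms under 5 library scalings in edgeR, with filled symbols for an adjusted p under 0.05. miR-23a-5p stays between -6.78 and -6.20, whereas the calls of miR-27a-3p, miR-23a-3p, miR-23b-3p and miR-24-3p depend on the scaling.

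The calls on miR-23a-3p, miR-23b-3p and miR-24-3p changed with library scaling, as did that on miR-27a-3p, while miR-27b-3p was called under none of the 5 scalings. The median log2 difference of all tested miRNAs was 0.30 with TMM, 0.20 with TMMwsp, 0.04 with RLE factors and -0.29 with total counts. With total counts 6 of the 8 arms were lower, as miR-23a-3p (log2 -0.83, edgeR adjusted p = 0.00377), miR-23b-3p (-0.77, 0.00962), miR-27a-3p (-1.18, 0.00157) and miR-24-3p joined both miR-23 passengers. With that scaling 39.8% of all tested miRNAs were lower and 19.3% higher. As a share of all counts the 5 guides together took 6.62%, 5.92% and 4.57% of WT libraries and 3.88%, 3.49% and 2.68% of san:san libraries. Those shares did not overlap (two-sided exact permutation p = 0.1, which is the lowest value 3 libraries against 3 can reach, also 0.1 after Benjamini-Hochberg adjustment over 5 sets). The 4 passengers took 2.27%, 1.95% and 2.21% against 0.0758%, 0.0648% and 0.0761% (exact permutation p = 0.1). All 9 arms summed to 7.84% ± 1.05 in WT and 3.42% ± 0.611 in san:san (exact permutation p = 0.1). The chromosome 8 arms other than miR-24-3p went from 5.38% ± 0.647 to 1.89% ± 0.316, and the miR-23b and miR-27b arms from 1.65% ± 0.366 to 0.975% ± 0.190, each without overlap. miR-23a-5p made up 95.4% ± 1.26 of the passenger counts in WT and 26.0% ± 5.75 in san:san.

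The balance of arms within a hairpin needs no library scaling, since both arms are counted in the same library. In the miR-23a hairpin the 5p arm held 36.8%, 36.1% and 45.8% of the counts of both arms in WT. In san:san it held 0.734%, 0.926% and 1.63%. All WT libraries lay far above all san:san libraries, with 95% exact binomial intervals from 33.4% to 49.0% in WT and from 0.488% to 2.32% in san:san. The 5p over 3p ratio was 62.2-fold lower in san:san (log2 -5.96 ± 0.53, edgeR adjusted p = 4.88e-22 over 50 hairpins). The spread was pooled across hairpins in that fit, and limma on the log2 ratios gave -5.88 with an adjusted p of 1.39e-04.

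Of the 5 hairpins of the clusters that were compared, 3 had the 20 counts in every library that the test required. For miR-24-2 the 3p counts were those of miR-24-3p, which both loci make, so its ratio is not a balance within 1 hairpin. The miR-23a and miR-23b hairpins had less 5p arm in san:san and 0 had more, where 18.0% of the 50 tested hairpins had less and 18.0% had more. miR-23a was the second of the 50 by size of the fall in 5p. The other hairpins with the smallest p were miR-328 and miR-25, with less 5p in san:san (log2 ratio -7.12 and -3.68), and miR-125a, miR-130b and miR-99b, with more (3.99, 3.32 and 2.79). In miR-23b the 5p arm held 1.78%, 0.789% and 1.95% in WT and 0.360%, 0.255% and 0.221% in san:san, without overlap (log2 ratio -2.17 ± 0.61, edgeR adjusted p = 0.00170). That call was lost without WT replicate 1 (log2 -2.0, 0.0536) and in libraries thinned to equal depth (-2.06, 0.185). miR-24-2-5p over miR-24-3p held 4.07%, 6.64% and 6.11% in WT and 6.73%, 5.78% and 7.92% in san:san, overlapping (log2 ratio 0.24 ± 0.39, adjusted p = 0.656).

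The miR-27 hairpins fell short of 20 counts in 1 or more WT libraries. In miR-27a the 5p arm held 0%, 30.2% and 21.9% of 9, 43 and 32 counts in WT and 14.4%, 19.8% and 25.4% of 111, 91 and 59 counts in san:san. The genotypes overlapped throughout (exact permutation p = 0.9). In miR-27b it held 38.5%, 16.7% and 16.7% of 13, 30 and 12 counts in WT and 3.87%, 1.05% and 8.20% of 155, 95 and 61 in san:san, without overlap but with wide intervals (exact permutation p = 0.1). With a minimum of 10 counts miR-27b was tested and had less 5p in san:san (log2 ratio -2.74, edgeR adjusted p = 0.00446), where 19.2% of 73 hairpins had less. Without WT replicate 1 miR-27a was tested and did not pass (-0.61, 0.538). After adjustment over the 5 hairpins the smallest exact permutation p was 0.167.

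**Figure D3:**
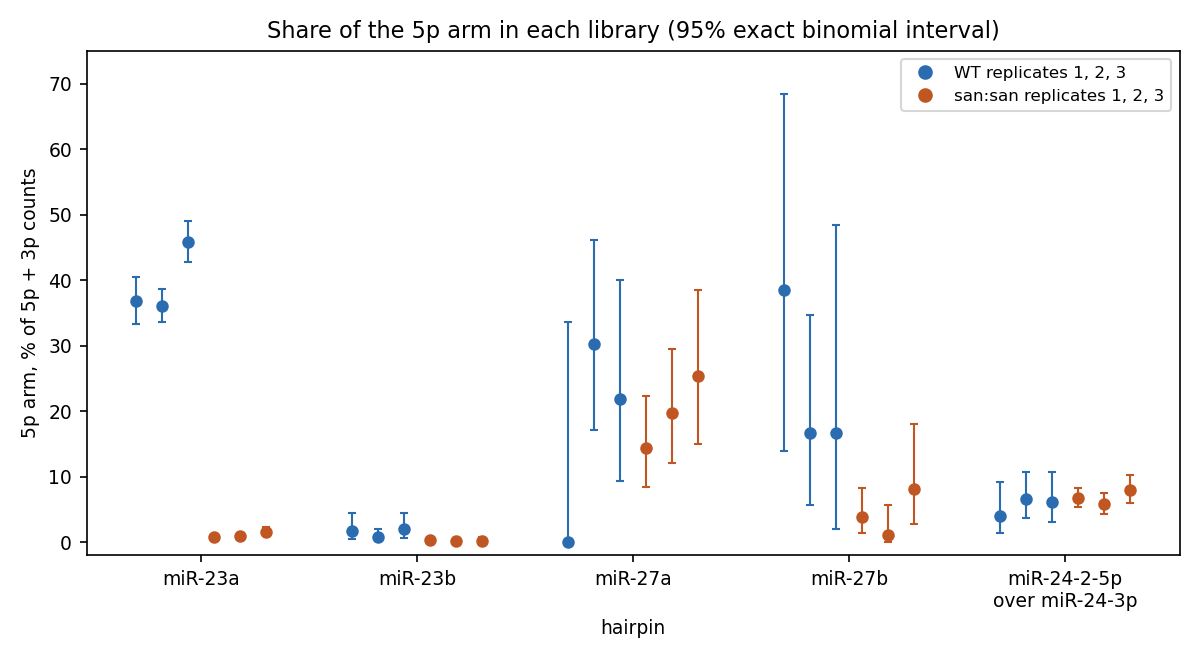
Share of the 5p arm among the 5p and 3p counts of each hairpin in each library, with 95% exact binomial intervals, replicates 1, 2 and 3 from left to right in each genotype. The miR-23a share is 36.1% to 45.8% in the WT libraries and 0.734% to 1.63% in the san:san libraries, and the miR-27a and miR-24-2 shares overlap.

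Ratios between arms were also taken within each library. miR-23a-3p exceeded miR-23b-3p by 2.12, 1.87 and 2.15 times in WT and by 1.95, 1.91 and 2.0 times in san:san (log2 difference -0.06, exact permutation p = 0.4). miR-23a-3p over miR-24-3p was 3.97, 4.45 and 3.20 in WT and 3.04, 3.40 and 3.17 in san:san, with 7.03 to 13.1 and 12.1 to 13.1 for miR-24-3p over miR-27a-3p. Both overlapped (exact permutation p = 0.2 and 0.3), as did miR-23a-3p over miR-27a-3p (21.6 to 52.0 against 39.8 to 41.1, p = 0.4). The ratios that did not overlap involved miR-27b-3p or the miR-23 passengers. miR-27a-3p over miR-27b-3p was 1.13, 1.20 and 2.5 in WT and 0.638, 0.777 and 0.786 in san:san. The WT counts were 9, 30 and 25 against 8, 25 and 10, so the pair was close in WT replicates 1 and 2. In each san:san library miR-27b-3p was the more counted. Without WT replicate 3 the log2 difference of the ratio went from -1.04 to -0.67. miR-23b-3p over miR-27b-3p went from between 20.1 and 27.6 in WT to between 13 and 16.6 in san:san. miR-23a-5p over miR-23b-5p was 68.3, 133 and 91.4 in WT and 4, 7 and 15 in san:san, 12.5-fold lower by geometric means. The miR-23b-5p counts in it were only 4, 4 and 5 in WT and 7, 4 and 2 in san:san, so that size is uncertain. Each of these 3 ratios had an exact permutation p = 0.1, or 0.233 adjusted over the 7 ratios computed.

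**Figure D4:**
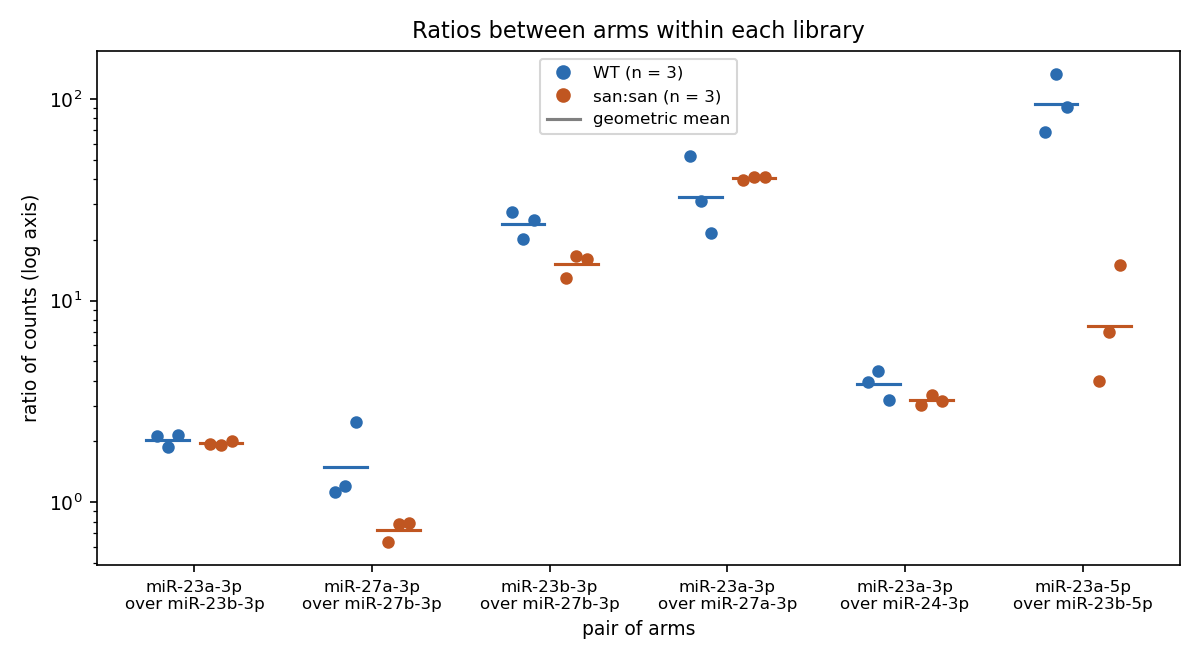
Ratio of counts (log axis) between pairs of arms in each WT and san:san library, with the geometric mean as a bar. miR-23a-3p over miR-23b-3p stays between 1.87 and 2.15 in the 6 libraries, while miR-23a-5p over miR-23b-5p is 68.3 to 133 in WT and 4 to 15 in san:san.

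The order of levels differed between the genotypes. In WT the scaled means ran from miR-23a-3p (26063 ± 6493 CPM) through miR-23a-5p, miR-23b-3p (12806 ± 3294) and miR-24-3p (6727 ± 1287) to miR-27a-3p (788 ± 145), miR-27b-3p (537 ± 167), miR-24-2-5p (387 ± 35.6), miR-27a-5p (205 ± 185) and miR-23b-5p (190 ± 83.9). In that order miR-23a-5p lay below miR-23a-3p in every WT library, while its range overlapped that of miR-23b-3p (9091 to 15368 CPM). miR-27a-3p and miR-27b-3p overlapped, as did miR-27b-3p and miR-24-2-5p, miR-24-2-5p and miR-27a-5p, and miR-27a-5p and miR-23b-5p. In san:san the order was miR-23a-3p (21640 ± 2784), miR-23b-3p (11081 ± 1602), miR-24-3p (6777 ± 1021), miR-27b-3p (740 ± 185), miR-27a-3p (533 ± 75.5), miR-24-2-5p (492 ± 81.1), miR-23a-5p, miR-27a-5p (130 ± 26.8) and miR-23b-5p (31.6 ± 11.9). There miR-27a-3p overlapped both of its neighbours, miR-27b-3p and miR-24-2-5p, and miR-23a-5p had moved from second to seventh of the 9.

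Similar patterns were sought by the root mean square difference of centred log2 CPM over the 6 libraries. Nearest to miR-23a-5p were miR-5128 (0.35), miR-9-3p (0.56), miR-365-2-5p (0.75) and miR-3473f (0.77). miR-5128 had WT counts of 39, 72 and 81 and san:san counts of 3, 1 and 6, and miR-365-2-5p 32, 80 and 67 against 11, 5 and 10. Nearest to miR-24-3p were miR-146b-5p (0.16), let-7a-5p (0.17), miR-98-5p (0.18) and miR-29b-3p (0.19), none of which passed the test. Nearest to miR-23a-3p was its paralog guide miR-23b-3p (0.07), a comparison added after the values were seen. The 4 nearest to miR-23a-5p are shown for comparison with it.
miR-5128: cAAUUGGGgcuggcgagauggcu
miR-9-3p: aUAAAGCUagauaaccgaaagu
miR-365-2-5p: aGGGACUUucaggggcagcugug
miR-3473f: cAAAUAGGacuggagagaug
miR-5128 and miR-365-2-5p, like miR-23a-5p, hold at least 10 G and the run GGGG. miR-9-3p, with 4 G, and miR-3473f, with 7, hold no such run.

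With 11 G among 22 bases miR-23a-5p was the most G-rich of the 8 arms with a sequence, which otherwise held 4 to 8. miR-23b-5p held 7 G, as did miR-24-3p, although only the first was lower. Counting G was chosen after the values were seen. Of the 208 tested miRNAs with a sequence (of 254), 26% were lower and 36.5% higher. Among them 33 held at least 9 G, and 24 of these were lower in san:san and 1 higher, with a median log2 difference of -2.90. Of 110 with at most 5 G, 12 were lower and 57 higher (median 0.92), and of 65 with 6 to 8 G, 18 were lower and 18 higher (0.26). Across the 208, Spearman's rho of G count with log2 difference was -0.48, a description over miRNAs that share the same 6 libraries. With total counts the first group had 25 lower and 0 higher (median -3.48) and the low-G group 27 lower and 33 higher (0.34).

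The run GGGG, searched in the mature strand, occurs in 11.2% of the 1679 mature sequences of the RefSeq table and in 5.29% of those tested. Of the 11 tested miRNAs that hold it 9 were lower and 0 higher, against 22.8% lower and 38.6% higher among those with a sequence and no such run. The 9 include miR-149-3p (log2 -7.22), miR-5128 (-6.51), miR-23a-5p and miR-365-2-5p (-5.06). miR-744-5p (-0.03) and miR-423-5p (0.27), which hold it too, did not pass. The run was noted in miR-23a-5p and in miR-5128 and miR-365-2-5p, taken for their like pattern, and these are counted among the 9. Members such as miR-149-3p (WT counts 16, 19 and 11, san:san counts 0, 1 and 0) passed the count filter only by their WT libraries. Counts by GGGG or by number of G thus describe the tested miRNAs, and an effect of G was not tested.

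**Figure D5:**
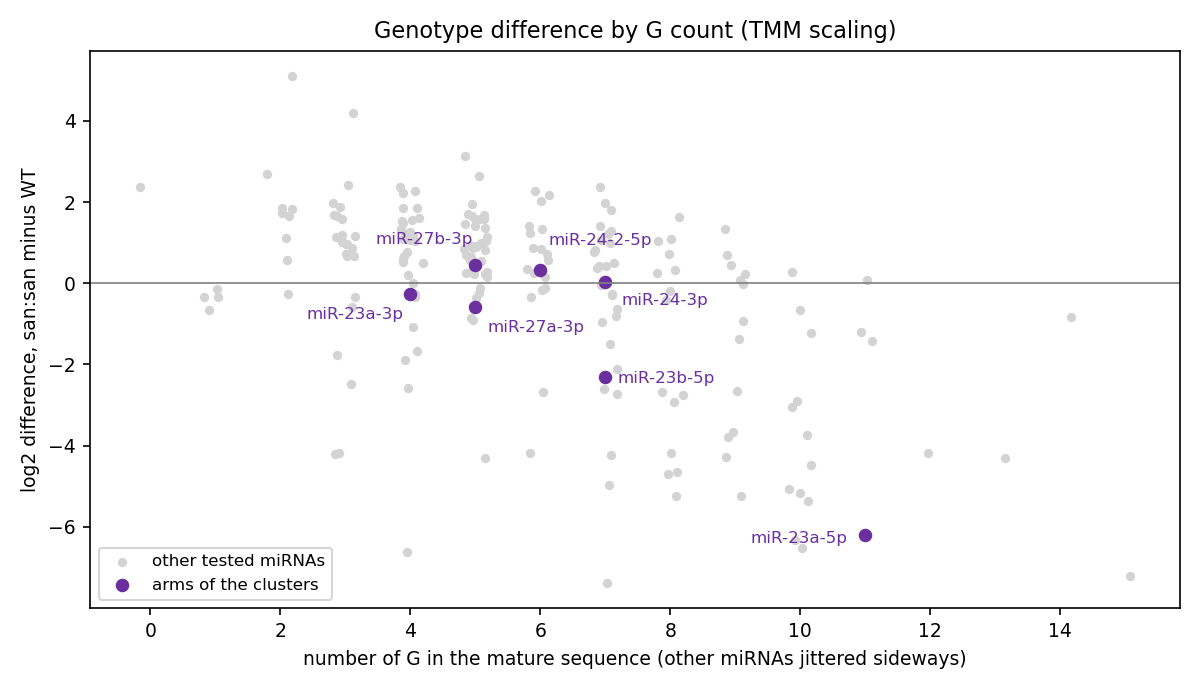
Log2 difference, san:san minus WT with TMM scaling, against the number of G in the mature sequence for the 208 tested miRNAs with a sequence, the arms of the clusters in purple and named. miR-23a-5p, with 11 G, lies at -6.20, and the 3p arms shown, with 4 to 7 G, lie between -0.59 and 0.45.

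Other miRNAs of macrophage and lymphocyte activation were taken as a list for comparison. Of its 11 names 9 were tested, 1 was higher (miR-222-3p, log2 0.73, edgeR adjusted p = 0.0383), 3 were lower and 5 did not pass, with a median of -0.34 against 0.30 for all tested. The lower ones were miR-125b-5p (-1.90 ± 0.20, 2.32e-06), miR-9-5p (-4.31 ± 0.50, 5.98e-06) and miR-378a-3p (-2.04 ± 0.29, 3.87e-05). The macrophage and myeloid list, with 7 of 12 names tested, had 6 higher, 0 lower and 1 not past, with a median of 0.96. Among all tested miRNAs 34.6% were higher and 29.5% lower, so the 3 of 9 lower in the activation list are near the background. Neither list contains an arm of the miR-23, miR-27 or miR-24 clusters.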

How the data were processed

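Small RNA libraries of exosomes were grouped by the genotype and replicate number in the sample titles. The authors deposited whole-number counts per mature miRNA for all 6 libraries. Per the submitters' processing notes the genome was mm9. Aligner, trimming and miRNA annotation were not given in the sources used here. Per the labels' protocols, RNA was taken with Trizol, and both an RNA kit and a miRNA library procedure are named. The deposited scaled columns of the same libraries were not used.

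Genotypes were compared with edgeR 4.0.16 (R 4.3.3; quasi-likelihood, robust, TMM, filterByExpr minimum count 10, Benjamini-Hochberg over 254 miRNAs, holding 98.2% to 99.3% of counts). Arm balance was tested in edgeR with 5p and 3p count columns per library, library as a term, and arm by genotype as the tested term, over hairpins with at least 20 counts in every library. Alternatives used limma 3.58.1 and DESeq2 1.42.0. Shares and ratios had two-sided exact permutation tests. The named miRNAs were the 9 arms, 2 further arms of the clusters, the 4 nearest by pattern and list members with the smallest p (miR-222-3p, miR-744-5p, miR-423-5p and miR-149-3p were added). The arms and lists were chosen with earlier results of these data known. No arm had counts identical to another row. Close paralogs such as miR-27a-3p and miR-27b-3p may still share reads that end before their differing base.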

Additional observations from a re-analysis of the deposited data

How the results depend on the processing

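The miR-23a-5p difference stayed past the threshold under each setting run, from log2 -6.78 (total counts) to -6.01 (without san:san replicate 1), as did the miR-23a arm ratio. Arms called lower numbered 6 with total counts, where 101 of all 254 tested miRNAs were lower. They numbered 4 with the 5 most abundant miRNAs left out of library sizes, where 85 of 254 were lower. With a replicate left out they numbered 1 to 4, where 62 to 85 of the 199 to 293 tested miRNAs were lower. Which arms could be tested changed between these settings. Arms called lower included miR-23a-3p with the 5 most abundant left out (-0.49) and in thinned libraries (-0.56). miR-24-3p, near 0, turned negative with total counts (-0.54), RLE factors (-0.23), the 5 most abundant left out of library sizes (-0.21), TMMwsp (-0.053), DESeq2 (-0.23), minimum counts of 5 (-0.065) or 20 (-0.074) and thinning (-0.29), and lay between -0.15 and 0.090 with a replicate left out. With total counts miR-24-2-5p (-0.27) and miR-27b-3p (-0.13) also reversed.

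Over all miRNAs 88 were higher and 75 lower, against 49 and 101 with total counts and 38 and 44 in libraries thinned to 12447 counts, which left a median of 131 miRNAs and 34 hairpins to test. Of hairpins, 9 had less and 9 more 5p arm. More 5p was found in 15 with limma and a scaled pseudocount, and less 5p in 14 at a minimum of 10 counts, 3 of them of the clusters. Thinning left 5 and 3, of which 1 belonged to the clusters. With a replicate left out, 1 to 2 cluster hairpins had less 5p. Of the 50 to 74 hairpins then tested, 9 to 11 had less 5p and 5 to 11 had more. The cause of these changes was not tested beyond fewer features and counts.

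Correlations of the deviations of same-numbered libraries were 0.10, -0.08 and 0.26, and those of differently numbered ones ran from -0.21 to 0.15. With 3 libraries per genotype these values are tied together and cannot decide whether the numbers pair the samples. With the replicate block miR-23a-5p was at -6.20 and 90 were higher and 71 lower. Depth limits the passenger arms, with at most 15 WT counts per library outside miR-23a-5p.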
